A study of Rattus norvegicus with 9 samples.

Results

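The genes described here are 10 that protect cells from reactive oxygen species and free metal ions: the metallothionein gene Mt1, the superoxide dismutases Sod1 and Sod2, the peroxide-removing enzymes Cat and Gpx1, the glutathione synthesis genes Gclc and Gclm, the thioredoxin reductase Txnrd1, and the stress-inducible enzymes Hmox1 and Nqo1. They were chosen by gene symbol in the array's annotation, not by their measured values. All 10 were on the array, out of 14217 genes with a symbol of their own, and they were read by 12 of the 31042 non-control probe sets. Gclc and Txnrd1 had more than 1 probe set each, and the one with the highest mean signal stood for the gene. A further probe set annotated to Mt1f, Ttr and Mt1 together was not used.

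The islets were those of male ZDF (fa/fa) rats, the Zucker Diabetic Fatty strain, which has a defective leptin receptor and becomes obese and then diabetic with age. Rosiglitazone, given as powdered Avandia mixed into food (3 mg/kg), activates the nuclear receptor PPAR gamma. The 3 treated arrays are of islets taken at 9 weeks, after drug feeding from week 5 to week 9. The 3 withdrawal arrays are of islets taken at 11 weeks, when rats given that same course had been off the drug for 2 weeks. The 3 untreated arrays are of islets taken at 13 weeks from rats never given it. Every group was fa/fa and ate Purina 5008 chow, and no lean rats are among these arrays. Treatment and age differ together between the groups, so their effects cannot be told apart in any comparison below. The labels call the arrays of a group biological replicates but do not say how many of the study's 24 rats each array represents.

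Reactive oxygen species are handled in steps. Superoxide dismutases turn superoxide into hydrogen peroxide, which catalase, glutathione peroxidases and the thioredoxin system then remove, using glutathione and thioredoxin that are kept reduced with NADPH. Many of the genes involved are induced by the transcription factor NRF2 (Nfe2l2), which KEAP1 holds back, while metallothioneins, small cysteine-rich proteins that bind zinc and copper, are induced through the metal-sensing factor MTF1. Beta cells, which store zinc with insulin in their granules, are known for low catalase and glutathione peroxidase activity.

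The deposited values were log2 signals. The medians of the 9 arrays were close, between 5.74 and 5.81, but their spread was not, with standard deviations between 1.65 and 2.00. Differences between groups therefore moved with brightness: with probe sets sorted into 10 equal groups by brightness, the brightest had a median treated minus untreated difference of 0.53 and a median withdrawal minus treated difference of -0.72, while the third group from the dim end had 0.01 for each. For this reason values after quantile normalization, which gives all arrays the same distribution, stand beside those as deposited; a value with no scale named is as deposited. Quantile normalization changed the 4318 higher and 1499 lower calls of treated minus untreated into 1606 higher and 1958 lower calls. A gene was called where limma's p, adjusted by the Benjamini-Hochberg method over the 20695 probe sets tested, was under 0.05. Islet markers were present, with the 7 beta cell markers on the array averaging 11.9 in treated, 11.2 in withdrawal and 11.5 in untreated islets. Acinar enzyme transcripts were bright in every group as well, averaging 13.9, 13.8 and 13.9 over 11 markers in the treated, withdrawal and untreated islets. In such bulk RNA, fewer cells of a type and less RNA per cell cannot be told apart.

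Mt1 showed the clearest pattern of the 10 genes. It was higher in treated islets than in both other groups, by similar amounts on both scales, and the withdrawal and untreated arrays overlapped. The Mt1 probe set read 6.53, 7.40 and 6.56 in treated islets, 5.75, 5.39 and 5.00 in withdrawal islets and 5.21, 5.52 and 5.26 in untreated islets. All 3 treated arrays lay above every withdrawal and untreated array. The group means were 6.83 ± 0.49, 5.38 ± 0.37 and 5.33 ± 0.17 in treated, withdrawal and untreated islets (SD, n = 3 arrays each). Mt1 rose 2.83-fold in treated relative to untreated islets, a log2 difference of 1.50 ± 0.24 (SE) with a limma adjusted p of 0.00237. After quantile normalization the difference was 1.43, with an adjusted p of 0.00381. This gene lay in a brightness range where the median difference was near 0 (0.01) and 20.1% of probe sets were called. In each of the 9 fits that left out 1 array, Mt1 was called on both scales, and the difference as deposited ranged from 1.21 without treated replicate 2 to 1.65.

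In withdrawal relative to treated islets Mt1 fell by 1.45 on the log2 scale, to 0.366 of the level in treated islets (adjusted p 0.0014), and by 1.41 after quantile normalization (adjusted p 0.00265). It was called in all 9 leave-one-out fits on each scale. Withdrawal and untreated islets differed by 0.05 on the log2 scale, with a 95% interval from -0.47 to 0.57 (adjusted p 0.982). These comparisons share arrays, so the treated arrays enter both the rise and the fall. In withdrawal relative to treated islets all 7 beta cell markers were lower on both scales as well. As deposited 4 were called, with a median of -1.01 (32.6% of all probe sets). After quantile normalization 3 were called, with a median of -0.29 (14.6%). In treated relative to untreated islets 3 of the 7 rose as deposited (median 0.35, 20.9% of all probe sets). None was called after quantile normalization (median 0.09). In withdrawal relative to untreated islets 6 of the 7 were lower as deposited, with a median of -0.33, and none was called. Their part in the fall of Mt1 was not tested. The mean signal of the Mt1 probe set over the 9 arrays lay at percentile 51.2 of all probe sets. Its withdrawal and untreated means, 5.38 and 5.33, lay below every array median (5.74 to 5.81).

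The other metallothioneins show how far this pattern extended. Mt2A, a closely related and usually co-induced metallothionein, read 10.19, 10.84 and 9.80 in treated islets, 9.30, 9.14 and 9.25 in withdrawal islets and 8.79, 8.91 and 9.32 in untreated islets. Its treated arrays again lay above all others. As deposited, Mt2A rose in treated relative to untreated islets by 1.27 on the log2 scale (adjusted p 0.00363), and fell by 1.05 in withdrawal relative to treated islets (adjusted p 0.0041), both called in all 9 leave-one-out fits. After quantile normalization neither difference passed the test: 0.72 with an adjusted p of 0.0693, and -0.32 with an adjusted p of 0.354. Mt2A lay in the brightest of the 10 groups of probe sets. There the median treated minus untreated difference as deposited was 0.53, with 55.9% called. For withdrawal minus treated these were -0.72 and 80%. Mt3, a metallothionein best known from brain, did not share the pattern. It averaged 9.00 ± 0.20 in treated, 8.75 ± 0.14 in withdrawal and 9.14 ± 0.16 in untreated islets, and its treated minus untreated difference was -0.14 as deposited (adjusted p 0.471) and -0.61 after quantile normalization, where it fell (adjusted p 0.00571). Mt1 and Mt2A are similar in sequence, and whether their probe sets bind each other's transcripts was not tested.

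**Figure D1:**
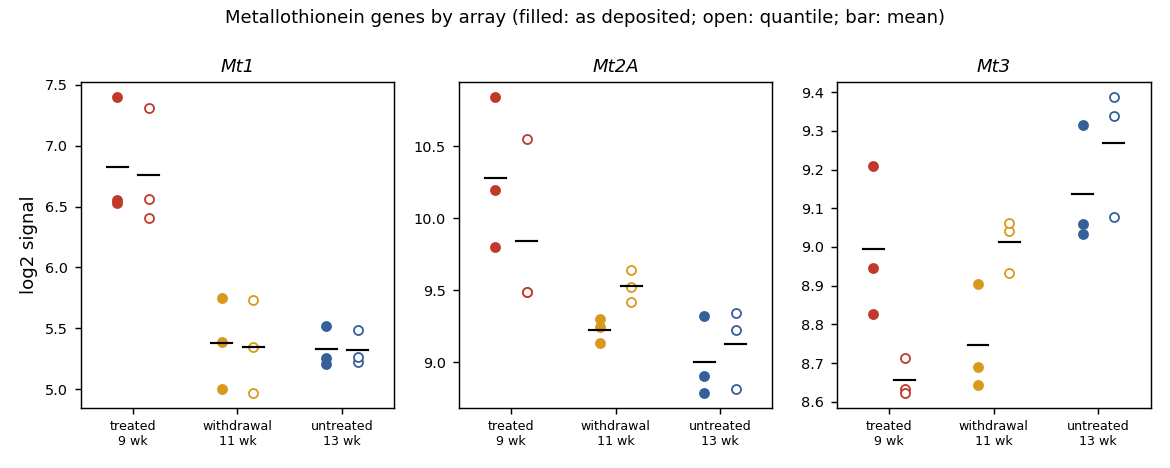
Log2 signal of Mt1, Mt2A and Mt3 (y axis) on each array of the treated, withdrawal and untreated groups (x axis), with filled points as deposited, open points after quantile normalization and a bar at each group mean. The treated arrays of Mt1 lie above all other arrays on both scales, the treated and withdrawal arrays of Mt2A draw together after quantile normalization, and Mt3 has no treated excess.

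The promoters of these 3 genes are shown because they carry the metal response element, the short sequence that MTF1 binds. Each window runs from 250 bases before to 50 bases after the RefSeq start on GRCr8 and is printed 5′ to 3′ on the gene's own strand, which is the minus strand for all 3: Mt1 at chr19:10832926-10833225, Mt2A at chr19:10838659-10838958 and Mt3 at chr19:10856031-10856330. Capitals mark the core of the element, searched as TGCACNC or TGCGCNC on both strands.
Mt1: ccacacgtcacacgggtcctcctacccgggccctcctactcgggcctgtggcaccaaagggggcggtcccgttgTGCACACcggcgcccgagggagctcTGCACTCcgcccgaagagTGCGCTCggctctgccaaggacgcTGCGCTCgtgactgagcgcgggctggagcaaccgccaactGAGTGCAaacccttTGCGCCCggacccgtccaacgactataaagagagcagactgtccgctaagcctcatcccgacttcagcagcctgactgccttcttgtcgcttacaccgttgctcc
Mt2A: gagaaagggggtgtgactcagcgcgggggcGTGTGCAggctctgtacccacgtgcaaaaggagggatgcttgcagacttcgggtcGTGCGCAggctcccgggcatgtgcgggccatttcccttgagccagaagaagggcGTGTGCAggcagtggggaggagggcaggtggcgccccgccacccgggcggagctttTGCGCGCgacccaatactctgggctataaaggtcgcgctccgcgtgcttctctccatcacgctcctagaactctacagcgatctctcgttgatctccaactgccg
Mt3: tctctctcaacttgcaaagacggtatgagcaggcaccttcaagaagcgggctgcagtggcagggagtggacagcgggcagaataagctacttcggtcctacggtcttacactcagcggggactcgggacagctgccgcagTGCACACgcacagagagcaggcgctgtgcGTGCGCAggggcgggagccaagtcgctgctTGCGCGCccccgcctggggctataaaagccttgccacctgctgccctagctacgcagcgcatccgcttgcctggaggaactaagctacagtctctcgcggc
Mt1 held 6 cores, 5 on the printed strand and 1 on the other, between 176 and 55 bases before the start (positions -176 to -55). Mt2A held 4 and Mt3 held 3. Of 33469 rat promoter windows of this length, 24.2% held at least 1 core, 1.68% at least 3, 0.439% at least 4 and 0.0388% at least 6. A match describes the sequence only: Mt3, with 3 cores, had no treated excess. The core of the antioxidant response element, TGACNNNGC, to which NRF2 binds with small MAF proteins, occurred once in the Mt1 window and once in the Mt2A window, overlapping no metal response core, and was present at least once in 12.1% of windows.

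Mtf1, the gene of the metal-sensing factor, did not pass the test. It differed by -0.16 on the log2 scale in treated relative to untreated islets (adjusted p 0.492) and by -0.25 after quantile normalization (adjusted p 0.319). Of the 6 tested genes of metallothionein and zinc handling, 2 rose in treated islets as deposited, Mt1 and Mt2A, where 20.9% of all probe sets were called higher. After quantile normalization 1 rose and 1 fell, where 7.76% were called higher and 9.46% lower. The zinc importers Slc39a14 and Slc39a10 differed by 0.31 and 0.39 as deposited and by -0.16 and 0.29 after quantile normalization, and neither was called.

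Likeness to Mt1 was measured as the root mean square difference over the 9 arrays after each gene's own mean was taken out. Across 11502 genes its median was 0.70. As deposited the most alike were Wnt4, at 0.30, Mt2A, at 0.30, Arc, at 0.31, Tmem35a, at 0.32, and Sstr3, at 0.34. After quantile normalization, with a median of 0.74 over 11499 genes, they were Ppp1r1a, at 0.28, Acadsb, at 0.34, Wnt4, Tmem35a and Arc, each at 0.35. Wnt4, Arc and Tmem35a were thus among the closest on both scales, and Mt2A on the deposited scale.

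Across the 10 genes, 3 rose in treated relative to untreated islets as deposited, namely Mt1, Sod2 and Gpx1, and none fell. Of all probe sets tested, 20.9% were called higher, 7.24% lower and 28.1% either way, so the count of the 10 was close to the background. Treated arrays lay above all untreated arrays for 4 of the 10, Txnrd1 being the other one, where 31.2% of probe sets did, and below them for none (11.7%). After quantile normalization 1 of the 10 was called higher, Mt1, and 2 lower, Sod1 and Cat, against 7.76% and 9.46% of all probe sets, or 17.2% either way. On that scale the groups did not overlap for 3 of the 10 that were higher and 2 that were lower, where 17.8% of probe sets were in each class. The median difference of the 10 was 0.32 as deposited and 0.04 after quantile normalization, where the medians of all tested probe sets were 0.16 and 0.02.

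**Figure D2:**
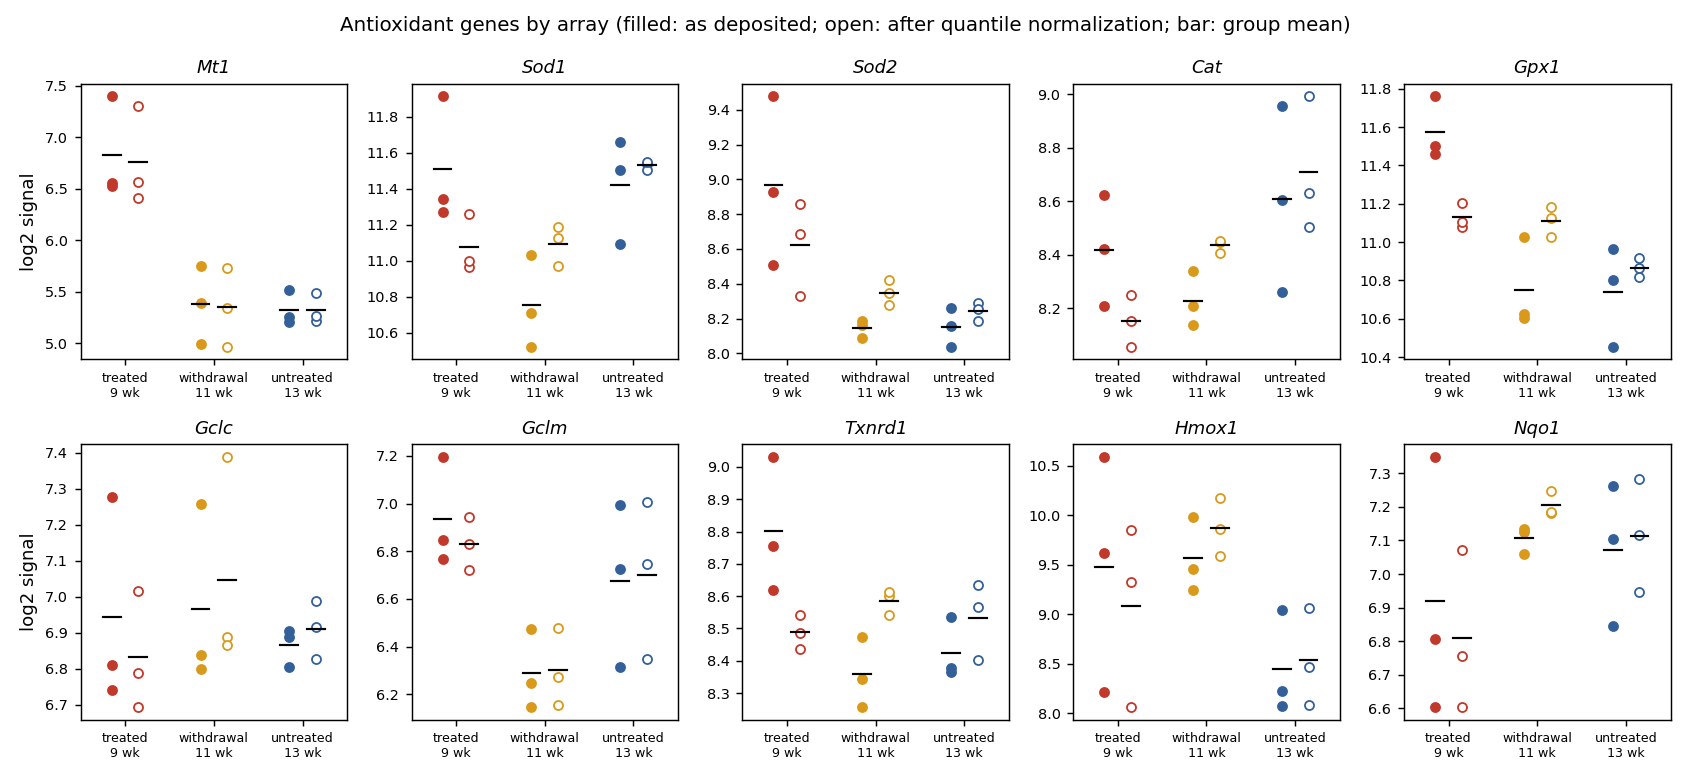
Log2 signal (y axis) of the 10 genes on each array of the treated, withdrawal and untreated groups (x axis). Filled points are as deposited, open points are after quantile normalization, and bars are group means; each gene has its own y axis. Treated arrays of Mt1, Sod2 and Gpx1 lie above all untreated arrays as deposited, and open points of Sod1 and Cat show treated arrays below all untreated arrays.

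The dismutases act first in oxidant handling, and their values differed. Sod2, the manganese dismutase of mitochondria, read 9.48, 8.51 and 8.93 in treated islets, 8.19, 8.09 and 8.17 in withdrawal islets and 8.26, 8.04 and 8.16 in untreated islets. The treated arrays were spread widely but stayed above every other array. As deposited Sod2 rose 1.76-fold in treated relative to untreated islets, a log2 difference of 0.82 ± 0.20 (SE, adjusted p 0.0128), and fell by 0.82 in withdrawal relative to treated islets (adjusted p 0.00683, called in all 9 leave-one-out fits). The rise was not called without untreated replicate 2 (adjusted p 0.0617). After quantile normalization the 2 differences were 0.38 and -0.28, with adjusted p of 0.0662 and 0.129, so neither was called. Withdrawal and untreated islets differed by -0.006, with an interval from -0.44 to 0.43.

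Sod1, the copper and zinc dismutase of the cytosol, read 11.91, 11.27 and 11.34 in treated islets, 10.71, 10.53 and 11.03 in withdrawal islets and 11.50, 11.09 and 11.66 in untreated islets. The withdrawal arrays lay below all others, and the treated and untreated arrays overlapped. As deposited Sod1 fell by 0.75 on the log2 scale in withdrawal relative to treated islets (adjusted p 0.012), a call that was lost without withdrawal replicate 2 (adjusted p 0.0612), while after quantile normalization the same difference was 0.02 (adjusted p 0.905). Treated minus untreated was 0.09 as deposited (adjusted p 0.759), but after quantile normalization the treated arrays, at 11.26, 10.97 and 11.00, lay below the untreated arrays, at 11.54, 11.50 and 11.55, and Sod1 fell by 0.46 (adjusted p 0.0196). That fall was called in 5 of 9 leave-one-out fits, being lost without treated replicate 3 (adjusted p 0.054) and without untreated replicates 1, 2 or 3 (adjusted p 0.0567, 0.058 and 0.0553). In withdrawal relative to untreated islets Sod1 was -0.66 as deposited and -0.44 after quantile normalization; groups did not overlap on either scale, but the adjusted p were 0.423 and 0.153. It was called as deposited without treated replicate 1 (adjusted p 0.0356). Ccs, the copper chaperone for Sod1, rose in treated islets as deposited by 0.53, and after quantile normalization it differed by 0.13.

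Sod3, the secreted dismutase, is not one of the 10. In treated relative to untreated islets it was called lower on both scales, as Sod1 was after quantile normalization only. It fell by 0.58 in treated relative to untreated islets as deposited (adjusted p 0.016) and by 0.90 after quantile normalization (adjusted p 0.00831). As deposited this call was lost without untreated replicate 2 (adjusted p 0.0748).

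Gpx1, the main selenium-dependent glutathione peroxidase, read 11.76, 11.50 and 11.46 in treated islets, 10.61, 10.62 and 11.03 in withdrawal islets and 10.80, 10.46 and 10.96 in untreated islets. Treated arrays lay above all others, and withdrawal and untreated arrays overlapped. As deposited Gpx1 rose by 0.83 ± 0.17 on the log2 scale (SE, 1.78-fold, adjusted p 0.00619) in treated relative to untreated islets and fell by 0.82 in withdrawal relative to treated islets (adjusted p 0.00317), both called in all 9 leave-one-out fits. After quantile normalization the treated minus untreated difference was 0.26 (adjusted p 0.082) and the withdrawal minus treated difference was -0.02 (adjusted p 0.899). In the brightest of the 10 groups of probe sets, which holds Gpx1, Sod1 and Hmox1, the median difference of treated minus untreated was 0.53 and 55.9% were called. For withdrawal minus treated these were -0.72 and 80%.

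Cat, the peroxisomal catalase, was not called as deposited but fell in treated islets on the quantile scale. It read 8.62, 8.21 and 8.42 in treated islets, 8.21, 8.14 and 8.34 in withdrawal islets and 8.96, 8.26 and 8.61 in untreated islets, and as deposited the groups overlapped (treated minus untreated -0.19, adjusted p 0.426). After quantile normalization it read 8.15, 8.06 and 8.25 in treated islets, 8.45, 8.41 and 8.45 in withdrawal islets and 8.99, 8.51 and 8.63 in untreated islets, and the 3 groups did not overlap. Cat then fell by 0.56 in treated relative to untreated islets (adjusted p 0.0157), and it was called in all 9 leave-one-out fits on that scale, with a highest adjusted p of 0.0494. Withdrawal minus treated was 0.28 (adjusted p 0.115) and withdrawal minus untreated -0.27 (adjusted p 0.496) on that scale.

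Glutathione synthesis starts with glutamate-cysteine ligase, made of a catalytic subunit from Gclc and a modifier subunit from Gclm that raises its efficiency. Both are textbook NRF2 targets, so their promoters are shown, on GRCr8, plus strand, with capitals marking the antioxidant response core TGACNNNGC found on either strand: Gclm at chr2:213031885-213032184 and Gclc at chr8:87510226-87510525.
Gclm: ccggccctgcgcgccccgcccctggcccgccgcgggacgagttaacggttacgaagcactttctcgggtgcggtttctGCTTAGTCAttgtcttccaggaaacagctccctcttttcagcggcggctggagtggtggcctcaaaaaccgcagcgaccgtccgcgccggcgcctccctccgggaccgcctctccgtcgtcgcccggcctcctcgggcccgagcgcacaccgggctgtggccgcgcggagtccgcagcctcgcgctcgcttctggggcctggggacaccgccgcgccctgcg
Gclc: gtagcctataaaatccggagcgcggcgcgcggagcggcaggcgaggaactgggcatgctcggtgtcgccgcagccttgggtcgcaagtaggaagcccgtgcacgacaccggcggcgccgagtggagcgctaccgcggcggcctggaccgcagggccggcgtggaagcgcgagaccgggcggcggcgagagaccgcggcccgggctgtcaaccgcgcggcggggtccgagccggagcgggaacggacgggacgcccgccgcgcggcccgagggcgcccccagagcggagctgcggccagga
Gclm held 1 core, on the strand opposite to the printed one, starting 172 bases before the start (position -172), and Gclc held none in this window. The Gclm window also held 2 metal response cores, not capitalised, where 6.36% of the 33469 rat windows held at least 2.

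Gclm read 7.20, 6.77 and 6.85 in treated islets, 6.25, 6.15 and 6.47 in withdrawal islets and 6.99, 6.31 and 6.73 in untreated islets. The treated arrays lay above the withdrawal arrays, and the untreated arrays overlapped both. Gclm fell by 0.65 ± 0.18 on the log2 scale in withdrawal relative to treated islets (SE, adjusted p 0.0138) and by 0.53 after quantile normalization (adjusted p 0.0292). The call was lost without withdrawal replicate 2 as deposited (adjusted p 0.0636), and on the quantile scale without treated replicate 3, withdrawal replicate 1 or withdrawal replicate 2 (adjusted p 0.0631, 0.0845 and 0.116). Treated minus untreated was 0.26 (adjusted p 0.292), and 0.13 after quantile normalization (adjusted p 0.589). Withdrawal minus untreated was -0.39, with an interval from -0.79 to 0.01 (adjusted p 0.68), and -0.40 after quantile normalization (adjusted p 0.394).

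Gclc did not follow its partner. It read 7.28, 6.74 and 6.81 in treated, 7.26, 6.80 and 6.84 in withdrawal and 6.90, 6.89 and 6.81 in untreated islets, and all 3 groups overlapped. No difference exceeded 0.10 on the log2 scale as deposited. Treated minus untreated was 0.08, with an interval from -0.29 to 0.44, and withdrawal minus treated was 0.02, with an interval from -0.34 to 0.39. After quantile normalization they were -0.08 and 0.22, with adjusted p of 0.744 and 0.287. Its other probe set gave 0.18 and -0.10 for these comparisons as deposited, and neither was called.

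Txnrd1, the cytosolic thioredoxin reductase, was read by a pair of probe sets. The brighter one gave 9.03, 8.62 and 8.76 in treated, 8.34, 8.26 and 8.48 in withdrawal and 8.38, 8.37 and 8.53 in untreated islets. Its treated arrays lay above all others. As deposited it fell by 0.44 in withdrawal relative to treated islets (adjusted p 0.0201), which was lost without withdrawal replicate 1 (adjusted p 0.0629) or withdrawal replicate 2 (adjusted p 0.0873). Treated minus untreated was 0.38, with an adjusted p of 0.0557, and it was called without treated replicate 2 (adjusted p 0.0298). The other probe set passed that comparison, at 0.55 (adjusted p 0.0301), so the call depended on the probe set. That probe set lost the call without treated replicate 1 or any 1 of the untreated arrays (highest adjusted p 0.115). After quantile normalization the brighter probe set differed by -0.05 and the other by 0.24, and neither was called. The brighter probe set lay in the second brightest of the 10 groups, which also holds Sod2 and Cat. There the median difference as deposited was 0.38 for treated minus untreated, with 41.6% called. For withdrawal minus treated these were -0.50 and 61.2%.

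Hmox1, the inducible enzyme that breaks down heme and is abundant in macrophages, had the highest SD of the 10 in each group as deposited. It read 10.59, 8.22 and 9.62 in treated islets, 9.24, 9.46 and 9.99 in withdrawal islets and 8.07, 8.22 and 9.04 in untreated islets. One treated array was near the untreated level, while all withdrawal arrays lay above all untreated arrays. Treated minus untreated was 1.03 ± 0.47 (SE, adjusted p 0.113) and 0.54 after quantile normalization (adjusted p 0.34). As deposited the brightest group of probe sets, which holds Hmox1, had a median of 0.53 in this comparison, with 55.9% called. Without treated replicate 2 the difference as deposited was 1.66 and Hmox1 was called (adjusted p 0.00673). Withdrawal minus untreated was 1.12, with an interval from 0.10 to 2.13 (adjusted p 0.63), and 1.33 after quantile normalization (adjusted p 0.209).

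Across the treated arrays, the means of 14 macrophage markers and of 10 stellate and matrix markers stood in the same order as Hmox1. The macrophage mean read 7.94, 6.41 and 7.12 in treated islets, 7.50, 7.56 and 7.70 in withdrawal islets and 7.02, 6.94 and 7.11 in untreated islets. The stellate and matrix mean read 10.43, 9.20 and 9.84 in treated, 9.94, 9.95 and 10.13 in withdrawal and 9.72, 9.55 and 9.96 in untreated islets. The treated array lowest in Hmox1 was lowest in both means, and the treated array highest in Hmox1 was highest in both. This order was not particular to these markers. The beta cell mean had it as deposited (12.04, 11.88 and 11.93), as did Sod1, Sod2, Cat, Gclc, Gclm and Txnrd1. The endothelial and acinar means, Mt1, Gpx1 and Nqo1 did not. No macrophage marker among the 12 tested was called in withdrawal relative to untreated islets, although all 12 differences were positive, with a median of 0.49, where 44.5% of all probe sets had a positive difference. In treated relative to untreated islets 1 of the 12 was called lower as deposited (7.24% of all probe sets) and 1 after quantile normalization (9.46%). None was called higher. Of the 10 stellate and matrix markers, none was called there as deposited and 4 were called lower after quantile normalization, beside these shares. In withdrawal relative to treated islets all 12 macrophage markers were higher on both scales, with 2 called as deposited and 6 after quantile normalization. Of all probe sets, 11.2% and 14.6% were called higher on these scales. Of the 10 stellate and matrix markers, none was called in that comparison as deposited and 9 rose after quantile normalization, beside the same shares. The part of these cells in the Hmox1 values was not tested. The same treated array, replicate 2, that was lowest in the macrophage mean and in the stellate and matrix mean was highest in Mt1.

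**Figure D3:**
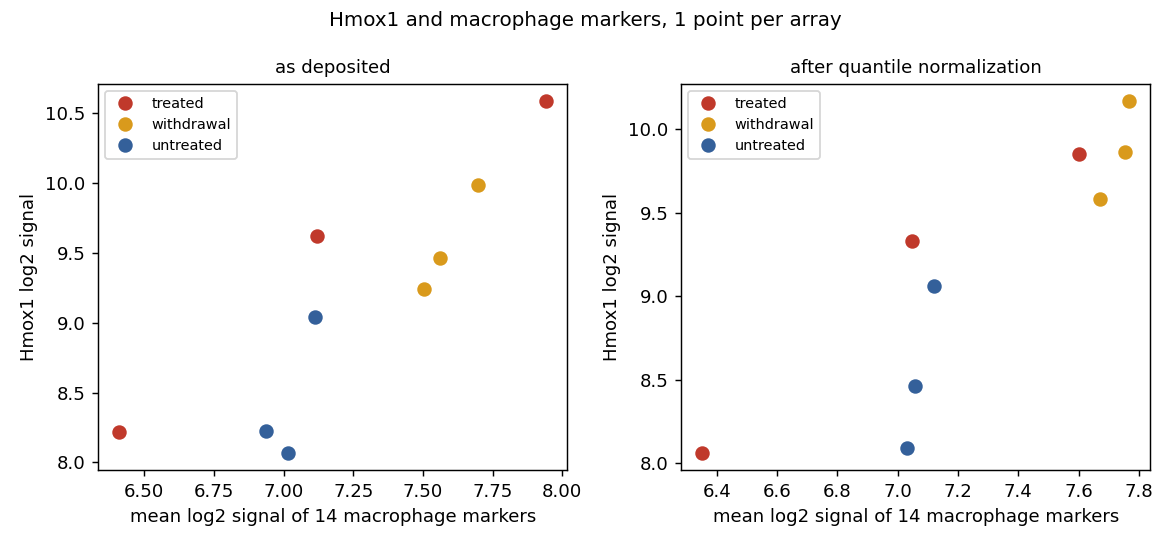
Hmox1 log2 signal (y axis) against the mean log2 signal of 14 macrophage markers (x axis), 1 point per array, as deposited (left) and after quantile normalization (right), coloured by group. The treated array with the lowest macrophage marker mean, 6.41 as deposited, has the lowest treated Hmox1 signal, 8.22, and the withdrawal arrays lie together at high values of both.

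Nqo1, a quinone reductase and a widely used NRF2 target, read 7.35, 6.81 and 6.60 in treated islets, 7.13, 7.06 and 7.14 in withdrawal islets and 7.11, 6.85 and 7.26 in untreated islets, and as deposited the groups overlapped. Treated minus untreated was -0.15 (adjusted p 0.547), and -0.30 after quantile normalization (adjusted p 0.135). After quantile normalization the withdrawal arrays lay above the treated arrays, and Nqo1 rose by 0.39 in withdrawal relative to treated islets (adjusted p 0.0467), while the difference as deposited was 0.19 (adjusted p 0.419). As deposited it was called without treated replicate 1, at 0.40 (adjusted p 0.0277).

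For withdrawal relative to untreated islets none of the 10 genes was called by limma on either scale, where 0.159% of probe sets were called as deposited (0.00483% higher and 0.155% lower) and 0.42% after quantile normalization (0.0338% higher and 0.387% lower). At an unadjusted limma p under 0.05, Hmox1 (0.0335) and Sod1 (0.00717) passed as deposited. After quantile normalization Hmox1 (0.00479), Sod1 (0.00227), Gclm (0.0286) and Gpx1 (0.0283) did. The share of all probe sets under that unadjusted threshold was not counted, so these passes have no background to be read against. The median difference of the 10 was 0.002, beside -0.02 for all tested probe sets. As deposited the withdrawal and untreated groups overlapped in each of the 10 except Hmox1, which was higher (7.65% of probe sets), and Sod1, which was lower (10.3%). After quantile normalization Hmox1 and Gpx1 were higher with no overlap (9.74%), and Sod1 and Cat lower (11.6%).

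For withdrawal relative to treated islets 6 of the 10 fell as deposited, namely Mt1, Gclm, Sod1, Sod2, Gpx1 and Txnrd1, and none rose. Of all probe sets, 32.6% were called lower, 11.2% higher and 43.8% either way. Withdrawal arrays lay below all treated arrays for the same 6 genes, where 39% of probe sets did, and above them for none (14.9%). After quantile normalization 2 fell, Mt1 and Gclm, and 1 rose, Nqo1, where 14.6% of probe sets were called lower, 14.6% higher and 29.1% either way. On that scale withdrawal arrays lay below all treated arrays for Mt1 and Gclm (24.3%) and above them for Nqo1, Cat and Txnrd1 (20.7%). The median difference of the 10 was -0.55 as deposited and 0.06 after quantile normalization, beside -0.19 and -0.03 for all tested probe sets. The beta cell markers, given above beside Mt1, were lower in the same comparison, and their part in these falls was not tested. Only Mt1 and Gclm, of the 10, were therefore called in the same direction on both scales in a comparison, and only Mt1 in both comparisons that involve the treated arrays.

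**Figure D4:**
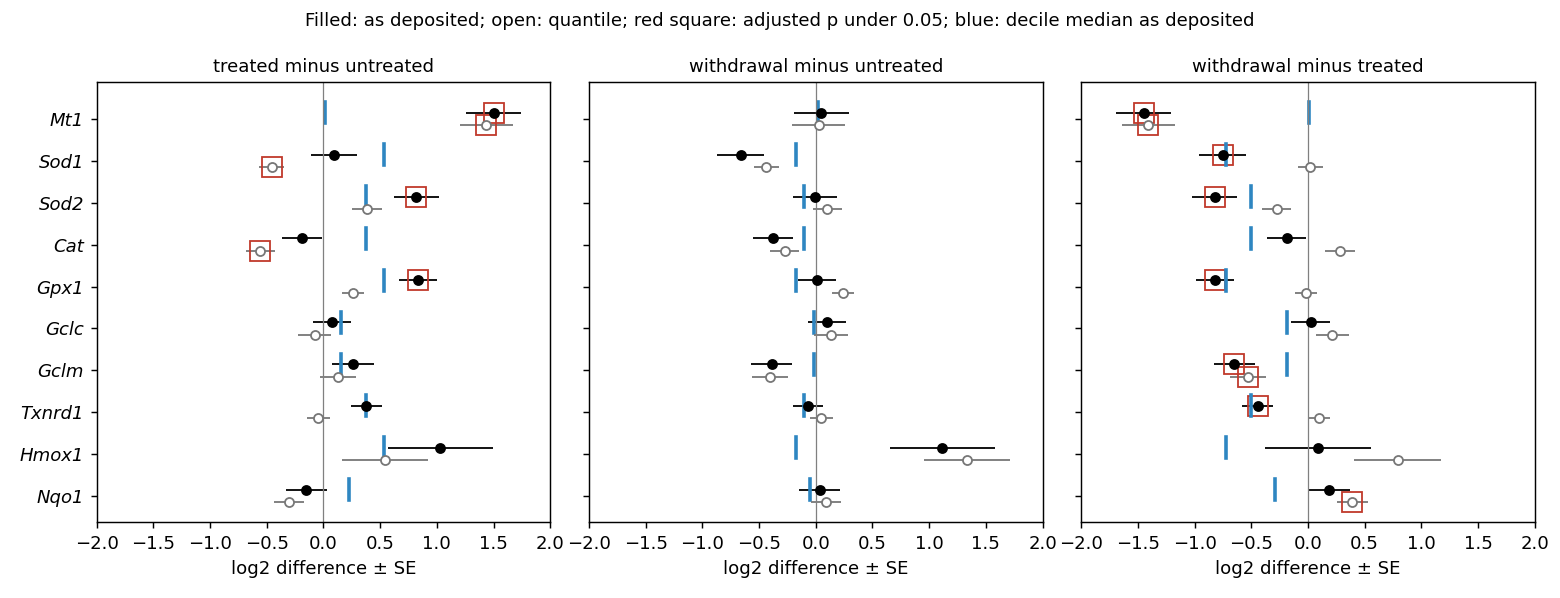
Log2 difference with its SE (x axis) of the 10 genes (y axis) for treated minus untreated, withdrawal minus untreated and withdrawal minus treated islets, with filled points as deposited and open points after quantile normalization. Red squares mark an adjusted p under 0.05, and blue bars the median difference of probe sets of like brightness as deposited; Mt1 lies 1.50 above and 1.45 below 0 where that median is 0.01.

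The wider antioxidant system was read through 68 tested genes outside the 10, drawn from lists of glutathione, thioredoxin, NADPH, heme and iron, NRF2, zinc and oxidant-producing genes. In treated relative to untreated islets 13 rose and 4 fell as deposited, where 20.9% of all probe sets were called higher and 7.24% lower. After quantile normalization 4 rose and 8 fell, where the shares were 7.76% and 9.46%. Those called in the same direction on both scales were Gsto1, Idh2, Msra and Prdx3, which rose, and Nox1, Sod3, Txnip and Txnrd3, which fell. On both scales together 7.48% of all probe sets were called higher and 6.42% lower. The median of the 68 was 0.30, beside 0.16 for all probe sets, and -0.03 after quantile normalization, beside 0.02. In withdrawal relative to treated islets 3 of the 68 rose and 27 fell as deposited, where 11.2% of all probe sets were called higher and 32.6% lower. After quantile normalization 11 rose and 3 fell, where 14.6% were called in each direction. Nox1, Sod3 and Txnrd3 rose and Fech, Gsto1 and Msra fell on both scales, where 9.9% of all probe sets were called higher and 13.7% lower. In withdrawal relative to untreated islets Txnip alone of the 68 was called on both scales, and it fell; 0.155% of all probe sets were called lower on both scales and 0.00483% higher.

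Gsto1, a glutathione transferase that also reduces oxidised thiols, read 10.30, 10.05 and 9.88 in treated, 8.97, 8.94 and 9.18 in withdrawal and 9.05, 8.88 and 9.19 in untreated islets. It rose by 1.04 in treated relative to untreated islets (adjusted p 0.00141) and by 0.47 after quantile normalization (adjusted p 0.0116), and fell by 1.05 and 0.34 in withdrawal relative to treated islets. Idh2, which makes NADPH in mitochondria, rose by 0.96 (adjusted p 0.00228), and 0.45 after quantile normalization (adjusted p 0.0103). Prdx3, the mitochondrial peroxiredoxin, rose by 0.78 (adjusted p 0.00916), and 0.40 after quantile normalization (adjusted p 0.0316). All 3 were called in the 9 leave-one-out fits as deposited. Msra, which repairs oxidised methionine, rose by 0.61 (adjusted p 0.0287) and was called in 6 of 9, not without treated replicate 2, untreated replicate 1 or untreated replicate 2 (highest adjusted p 0.102).

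Of the 22 tested genes of the glutathione system, Gpx1, Gclc and Gclm included, 5 rose in treated relative to untreated islets as deposited and 1 after quantile normalization, and none fell in that comparison; the background shares are those given above. As deposited 8 of the 22 fell and none rose in withdrawal relative to treated islets, and 2 fell and 1 rose after quantile normalization, where 32.6% and 14.6% of all probe sets were called lower. Gpx4, which protects membrane lipids from peroxidation, rose by 0.80 as deposited (adjusted p 0.00671) and was 0.22 after quantile normalization. Gstp1, a glutathione transferase, rose by 0.93 as deposited (adjusted p 0.00752) and was 0.36 after quantile normalization. Of the 15 thioredoxin and peroxiredoxin genes, Txnrd1 included, 4 rose and 2 fell in treated relative to untreated islets as deposited (20.9% and 7.24% of all probe sets), and 2 rose and 4 fell after quantile normalization (7.76% and 9.46%). As deposited 10 of the 15 fell and 1 rose in withdrawal relative to treated islets (32.6% and 11.2% of all probe sets). After quantile normalization 1 fell and 4 rose (14.6% in each direction). Most of the 15 lie in the brightest group of probe sets or the one below it, where 80% and 61.2% were called as deposited. Txnip, which binds and inhibits thioredoxin and is induced by glucose, read 10.72, 10.55 and 10.50 in treated, 10.46, 10.53 and 10.93 in withdrawal and 12.27, 11.69 and 12.27 in untreated islets. As deposited it was low in both drug-exposed groups. After quantile normalization Txnip averaged 10.15 in treated, 10.98 in withdrawal and 12.20 in untreated islets. On that scale the 3 groups did not overlap. Txnip fell by 1.49 in treated relative to untreated islets (adjusted p 0.000709) and by 2.05 after quantile normalization. It fell by 1.44 in withdrawal relative to untreated islets (adjusted p 0.00784), a call lost without withdrawal replicate 1 or 2 or untreated replicate 1 or 3 (highest adjusted p 0.0888).

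Of the 6 NRF2 regulators tested, none was called in treated relative to untreated islets on either scale (28.1% and 17.2% of all probe sets). Nfe2l2 differed by 0.23 as deposited (adjusted p 0.543) and -0.15 after quantile normalization, and Keap1 by 0.31 (adjusted p 0.129) and 0.06. In withdrawal relative to treated islets none was called after quantile normalization (29.1% of all probe sets). As deposited 3 of the 6 fell in that comparison, where 32.6% of all probe sets were called lower. They were Keap1, which fell by 0.49 (adjusted p 0.0174), Mafk, a small MAF partner of NRF2, which fell by 0.57 (adjusted p 0.017), and Sqstm1, an autophagy adaptor that binds KEAP1, which fell by 0.72 (adjusted p 0.013). Each of the 3 calls was lost without withdrawal replicate 1 or withdrawal replicate 2, and the highest adjusted p were 0.0712, 0.0828 and 0.0569. Srxn1, the sulfiredoxin that reactivates peroxiredoxins and an NRF2 target, differed by -0.43 as deposited (adjusted p 0.0608) and fell by 0.74 after quantile normalization (adjusted p 0.00322). Slc7a11, the cystine importer that feeds glutathione synthesis, differed by 0.48 (adjusted p 0.186), and 0.53 after quantile normalization (adjusted p 0.155). Among 8 tested genes of heme and iron handling none was called in treated relative to untreated islets on either scale (28.1% and 17.2% of all probe sets). Hmox2, the constitutive heme oxygenase, and Fech, which inserts iron into heme, fell in withdrawal relative to treated islets as deposited, calls lost without withdrawal replicate 2 (adjusted p up to 0.0983) and, for Fech, also without withdrawal replicate 1 (highest adjusted p 0.0959), and Fech fell and the iron exporter Slc40a1 rose after quantile normalization. Among 8 oxidant-producing genes 1 fell in treated relative to untreated islets on both scales, where 6.42% of all probe sets did. It was Nox1, the catalytic subunit of an NADPH oxidase. Nox1 read 6.70, 6.99 and 7.04 in treated, 7.79, 7.74 and 7.58 in withdrawal and 7.38, 7.44 and 7.37 in untreated islets. The 3 groups did not overlap. It fell by 0.49 in treated relative to untreated islets (adjusted p 0.0177), a call lost without untreated replicate 2 (adjusted p 0.0675), and by 0.64 after quantile normalization (adjusted p 0.0135). It rose by 0.79 in withdrawal relative to treated islets (adjusted p 0.00127), and by 1.04 after quantile normalization (adjusted p 0.00132).

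**Figure D5:**
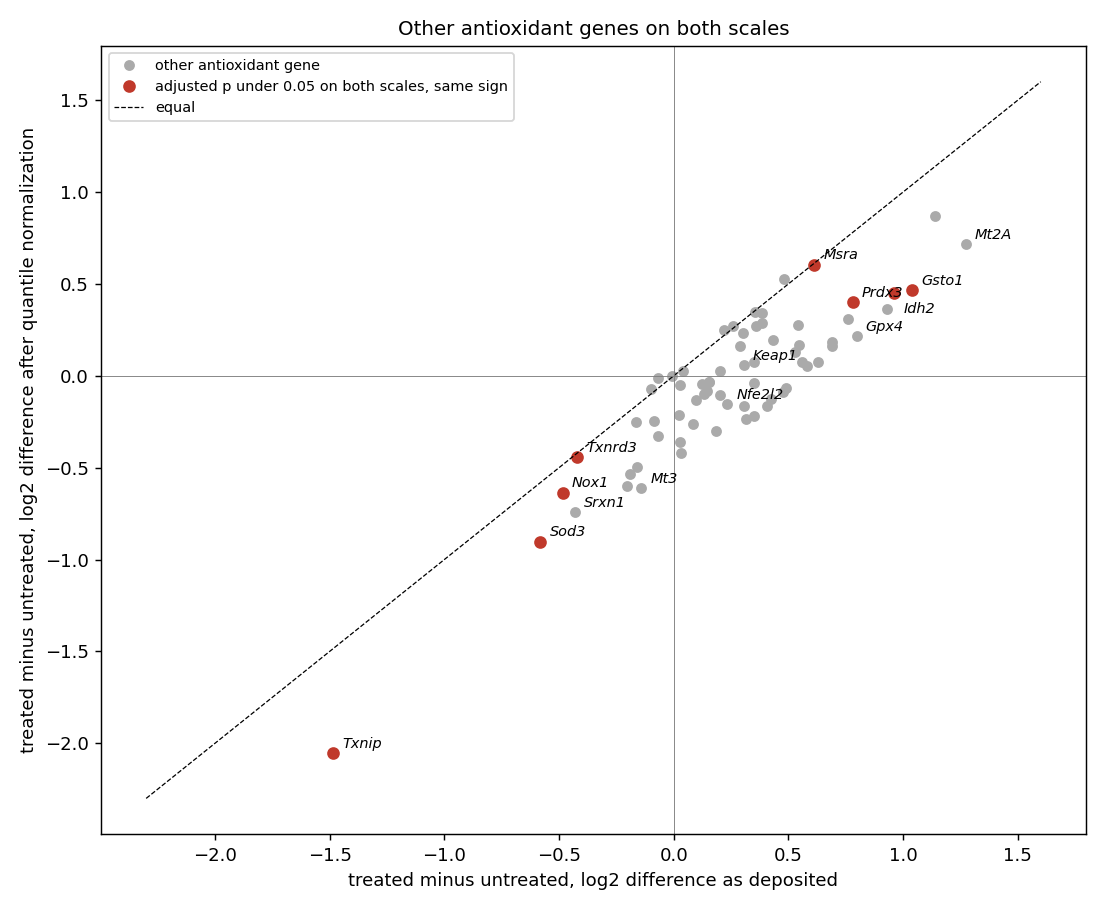
Treated minus untreated log2 difference of the 68 tested genes outside the 10, regulators and oxidant-producing genes included, as deposited (x axis) and after quantile normalization (y axis). The dashed line marks where both are equal. Red points are called in the same direction on both scales, 4 higher and 4 lower, and most other points lie below the dashed line.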

How the data were processed

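RNA from rat islets was hybridised to Affymetrix Rat Genome 230 2.0 arrays, 9 in all, in 3 groups of 3. The deposited values are log2 signals, 1 per probe set; the submitters' processing notes name RMA and MAS5 without saying which step each made, and the array spreads showed that the table is not quantile normalized. Probe sets were named from the platform annotation, updated through RefSeq gene numbers: of 31042 non-control probe sets, 20826 had 1 symbol, 436 several and 9780 none listed. The dimmest 33.3% by mean over all arrays were left out. A linear model with a term per group was fitted over all 9 arrays with limma 3.58.1 in R 4.3.3, and p-values were adjusted by Benjamini-Hochberg. The fit was tested on simulated data. Promoters came from the RefSeq table on GRCr8, which held 9 of the 10 genes. Figures used matplotlib 3.10.9. Alternatives were quantile normalization, array weights, median centring, other filters and probe set rules, the 6 compared arrays alone, a replicate block, and each array left out. Same-numbered arrays did not consistently deviate together (correlations from -0.283 to 0.504), so the numbers were not taken to pair arrays. The pairs of replicate 2 were all positive (0.221, 0.305 and 0.504). Named genes were the 10, up to 4 per list by smallest p for treated minus untreated and up to 2 for withdrawal minus treated, and a few regulators. Slc40a1 and the genes listed as called on both scales were named after their values were seen. The genes and lists were chosen with earlier results of these data known. With 3 arrays per group, their number limits precision, and p-values measure the spread between these arrays only.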

Additional observations from a re-analysis of the deposited data

How the results depend on the processing

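Mt1 kept its direction and its call in treated minus untreated and in withdrawal minus treated islets under every alternative run. Fitting a replicate block changed no member count (3, 0 and 6 genes called in treated minus untreated, withdrawal minus untreated and withdrawal minus treated islets), and gave 6414, 50 and 9434 probe sets called. For treated minus untreated, 6 of the 10 were called under array weights. The probe set count of that setting is not given here, so the 6 has no background to be read against. For withdrawal minus untreated, 4 were called under array weights and 2 with only the 6 arrays compared, beside 3275 and 494 of the 20695 probe sets. For withdrawal minus treated, 3 were called after quantile normalization, beside 6028 probe sets. Leaving out 1 array gave 2 to 5, 0 to 1 and 3 to 7 of the 10 called in these comparisons. The 5817 probe sets called for treated minus untreated became 3564 after quantile normalization, 3209 with 6 arrays and 2033 to 6319 with 1 array left out. The 33 called for withdrawal minus untreated became 87 after quantile normalization, 3275 under array weights, 494 with 6 arrays and 7 to 398 with 1 array left out. The 9057 called for withdrawal minus treated became 6028 after quantile normalization and 5587 to 9511 with 1 array left out.

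Several differences changed sign; among them the falls of Sod1 and Txnrd1 in withdrawal relative to treated islets had been called as deposited. For treated minus untreated after quantile normalization Gclc was -0.078, Sod1 -0.455 and Txnrd1 -0.046, and under array weights Gclc was -0.039 and Sod1 -0.159. For withdrawal minus untreated Sod2 was 0.104 and Txnrd1 0.051 after quantile normalization, Gpx1 was -0.013 after median centring and -0.127 under array weights, and Nqo1 was -0.042 under array weights. For withdrawal minus treated Sod1 was 0.020, Cat 0.283 and Txnrd1 0.097 after quantile normalization, and Gclc was -0.013 after median centring and -0.038 as the mean of its probe sets. With 1 array left out, as deposited and, for Mt1, Gclm, Cat and Sod1, also after quantile normalization (an alternative chosen after seeing the data), the ranges that crossed 0 were, for treated minus untreated, Gclc -0.091 to 0.177, Gclm -0.044 to 0.418, Nqo1 -0.366 to 0.007 and Sod1 -0.554 to 0.212. For withdrawal minus untreated they were Gclc -0.048 to 0.182, Gpx1 -0.132 to 0.122, Mt1 -0.132 to 0.241, Nqo1 -0.076 to 0.131 and Sod2 -0.063 to 0.048. For withdrawal minus treated they were Cat -0.292 to 0.328, Gclc -0.124 to 0.190, Hmox1 -0.543 to 0.643 and Sod1 -0.892 to 0.114. The cause was not tested. The alternative for linear values was not run, since the values are log2.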

Other observations

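Slc40a1, the iron exporter, which is abundant in macrophages that recycle iron, rose in withdrawal relative to untreated islets after quantile normalization by 0.57 on the log2 scale (limma adjusted p 0.0494), and was 0.41 as deposited (adjusted p 0.53). Nfkbia, the feedback inhibitor of NF-kappa-B, rose in treated relative to untreated islets by 1.28 (adjusted p 0.000916) and by 0.83 after quantile normalization (adjusted p 0.00322). Fech, which inserts iron into heme, fell in withdrawal relative to treated islets by 0.58 (adjusted p 0.0224) and by 0.52 after quantile normalization (adjusted p 0.0277), a call lost as deposited without withdrawal replicate 1 or withdrawal replicate 2 (highest adjusted p 0.0959).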
